A study of Homo sapiens with 2 samples.

Results

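The WNT pathway genes described here are the 19 WNT ligand genes, the 10 Frizzled receptor genes and 15 genes that act with them: the co-receptors LRP5 and LRP6, the ligand processing genes PORCN and WLS, the secreted antagonists SFRP1, SFRP2 and DKK1, the cytoplasmic effectors CTNNB1, APC, AXIN1 and AXIN2, and the nuclear effectors TCF7, TCF7L1, TCF7L2 and LEF1. They were chosen by symbol among the protein-coding genes, and all 44 were found among the 62700 genes of the gene table. Polyadenylated RNA was sequenced from TCam-2, an established human seminoma cell line, transduced with a FLAG-tagged DDX53 construct to overexpress this DEAD-box RNA helicase. The group has 2 replicate libraries, and the promoter of the construct and the origin of the replicates (separate transductions or cultures) are not given in the sources used here. The study's control cells, transduced with GFP or not transduced, were not analysed here, so no effect of DDX53 on these genes was computed. What follows gives the level of each gene, the difference between the libraries and the transcripts in use.

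WNT proteins are secreted signals that carry a lipid, added by PORCN, and travel to the cell surface bound to WLS. At the receiving cell they bind a Frizzled receptor, which in the canonical branch acts together with LRP5 or LRP6. A complex built on APC and AXIN otherwise marks beta-catenin, the product of CTNNB1, for destruction. When the complex is inhibited, beta-catenin accumulates and binds TCF and LEF factors on DNA. Other WNT and Frizzled pairs act without beta-catenin on cell polarity and movement. In the embryo WNT signalling takes part in the specification of primordial germ cells, the normal counterpart of seminoma cells.

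Promoters are shown for genes on which the levels and transcript data below turn: WNT9A, the highest ligand; WNT2B and WNT5B, ligands with TPM from a pair of annotated starts; TCF7, with TPM from transcripts that begin near the first of its annotated starts and before it, and none at the second; and DKK1, whose window held the sequence that TCF and LEF factors are known to bind. Each line is the 250 bases before the annotated start, on the strand of the gene, from RefSeq on GRCh38.p14. The windows are chr1:227947933-227948182 on the minus strand for WNT9A, and on the plus strand chr10:52314031-52314280 for DKK1, chr1:112466291-112466540 and chr1:112508715-112508964 for WNT2B, chr12:1616806-1617055 and chr12:1628981-1629230 for WNT5B, and chr5:134115363-134115612 and chr5:134123368-134123617 for TCF7. Capitals mark CTTTGAA or CTTTGAT, searched on both strands, which differ in the last letter only and so do not overlap on a strand.
WNT9A: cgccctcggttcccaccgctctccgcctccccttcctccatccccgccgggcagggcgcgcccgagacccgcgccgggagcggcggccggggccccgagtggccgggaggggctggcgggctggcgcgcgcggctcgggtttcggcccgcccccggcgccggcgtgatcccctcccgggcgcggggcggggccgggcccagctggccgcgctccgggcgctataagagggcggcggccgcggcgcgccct
DKK1: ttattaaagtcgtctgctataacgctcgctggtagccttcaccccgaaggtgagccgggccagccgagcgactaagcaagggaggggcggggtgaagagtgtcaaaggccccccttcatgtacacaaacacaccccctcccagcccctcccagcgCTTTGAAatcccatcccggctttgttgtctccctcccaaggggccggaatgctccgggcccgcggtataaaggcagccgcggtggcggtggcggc
WNT2B, the first start: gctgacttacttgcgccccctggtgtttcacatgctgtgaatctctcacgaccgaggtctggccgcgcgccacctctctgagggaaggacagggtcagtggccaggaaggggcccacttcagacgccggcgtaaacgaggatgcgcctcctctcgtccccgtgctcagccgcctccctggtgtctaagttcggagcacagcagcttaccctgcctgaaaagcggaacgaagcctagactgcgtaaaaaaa
WNT2B, the second start: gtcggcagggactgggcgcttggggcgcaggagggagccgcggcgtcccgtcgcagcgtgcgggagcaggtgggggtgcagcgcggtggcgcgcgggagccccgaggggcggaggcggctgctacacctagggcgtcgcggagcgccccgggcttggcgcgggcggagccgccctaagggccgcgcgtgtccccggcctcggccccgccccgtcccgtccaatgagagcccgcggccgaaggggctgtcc
WNT5B, the first start: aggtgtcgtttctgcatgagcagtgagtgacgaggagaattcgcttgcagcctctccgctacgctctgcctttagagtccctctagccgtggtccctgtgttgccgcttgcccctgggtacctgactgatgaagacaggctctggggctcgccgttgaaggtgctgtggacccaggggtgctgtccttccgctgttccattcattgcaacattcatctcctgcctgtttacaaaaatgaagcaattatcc
WNT5B, the second start: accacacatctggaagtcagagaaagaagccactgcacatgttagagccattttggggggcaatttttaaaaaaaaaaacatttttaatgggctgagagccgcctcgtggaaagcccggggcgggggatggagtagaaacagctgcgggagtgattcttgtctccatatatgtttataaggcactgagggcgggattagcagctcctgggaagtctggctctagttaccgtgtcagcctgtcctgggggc
TCF7, the first start: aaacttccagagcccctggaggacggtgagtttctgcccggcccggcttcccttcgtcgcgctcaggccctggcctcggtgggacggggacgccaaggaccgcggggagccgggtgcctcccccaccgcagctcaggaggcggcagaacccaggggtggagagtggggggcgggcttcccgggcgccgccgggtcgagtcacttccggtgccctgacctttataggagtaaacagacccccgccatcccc
TCF7, the second start: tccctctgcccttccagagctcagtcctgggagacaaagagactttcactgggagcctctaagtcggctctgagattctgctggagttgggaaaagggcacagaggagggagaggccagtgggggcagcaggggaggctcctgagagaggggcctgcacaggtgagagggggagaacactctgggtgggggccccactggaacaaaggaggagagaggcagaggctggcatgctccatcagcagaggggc
The promoter table held 42 windows for 33 of the 44 genes. Of these, 1 window, that of DKK1, had a match, or 2.38%, against 5.94% of all 35116 windows in the table. A match is a description of the letters and not of binding. The bases G and C made up a median of 68.4% of the 42 windows and 58% of all windows. The WNT9A window had 84.4% and 44 CG pairs, whereas the TCF7 window of the second start had 62.0% and 1 CG pair.

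The libraries held 24137664 reads in replicate 1 and 22198929 in replicate 2. DDX53 itself had 146 and 147 reads. The labelled cell type was checked on marker lists: all 10 seminoma and primordial germ cell markers reached 1 CPM (the count of a gene scaled by all reads in genes) in both libraries, and 3 of 4 embryonal carcinoma markers did. The remaining embryonal carcinoma marker, SOX2, had 0.994 CPM in replicate 1 and 1.08 CPM in replicate 2. None of 5 Sertoli and Leydig cell markers and none of 4 leukocyte markers reached 1 CPM in both libraries. Of 6 fibroblast markers, COL1A2, THY1 and LUM did. DCN had 1 read in each library, PDGFRA had 8 and 4 reads, and PDGFRB had 31 and 18. Of 3 endothelial markers, VWF and CDH5 did, while PECAM1 had 0 and 6 reads. For the germ cell list the summed CPM in replicates 1 and 2 was 5735 and 5707. POU5F1 alone had 1891 and 1921 CPM, whereas SOX17 had 143 and 146 and KIT had 67.7 and 68.1. The lists differ in their number of genes, and whether their sums tell seminoma from embryonal carcinoma was not tested. The summed CPM was 260 and 226 for embryonal carcinoma, 490 and 466 for fibroblasts, and 5.39 and 7.75 for the endothelial list. Most of the fibroblast sum came from COL1A2, with 455 and 424 CPM. The part of other cell types in the levels below was not tested. In RNA from whole cultures, fewer cells that express a gene and less RNA per cell cannot be told apart.

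At a threshold of 1 CPM, most of the receptor, co-receptor and effector genes were detected, and fewer of the ligand genes were. Of the 44 genes, 29 were detected, meaning at least 1 CPM in both libraries. That is 65.9%, against 61.7% of all 19831 protein-coding genes. Detection was reached by 8 of 19 ligands, 9 of 10 Frizzled receptors, both co-receptors, both ligand processing genes, 1 of 3 secreted antagonists, all 4 cytoplasmic effectors and 3 of 4 nuclear effectors. These counts depended on the threshold, with 16 ligands at 0.1 CPM and 4 at 5 CPM, and 10 receptors at 0.1 CPM and 6 at 5 CPM. Levels of different genes were compared per length, as TPM (a share of all transcripts, corrected for length) summed over the transcripts of a gene. On that scale CTNNB1, TCF7L1, WNT9A, FZD6 and WLS were the 5 highest of the 44 genes, and the same 5 led by CPM per kilobase of merged exons. Intervals below are 95% Wilson intervals and, like the limits for genes without a read, cover counting error only.

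**Figure D1:**
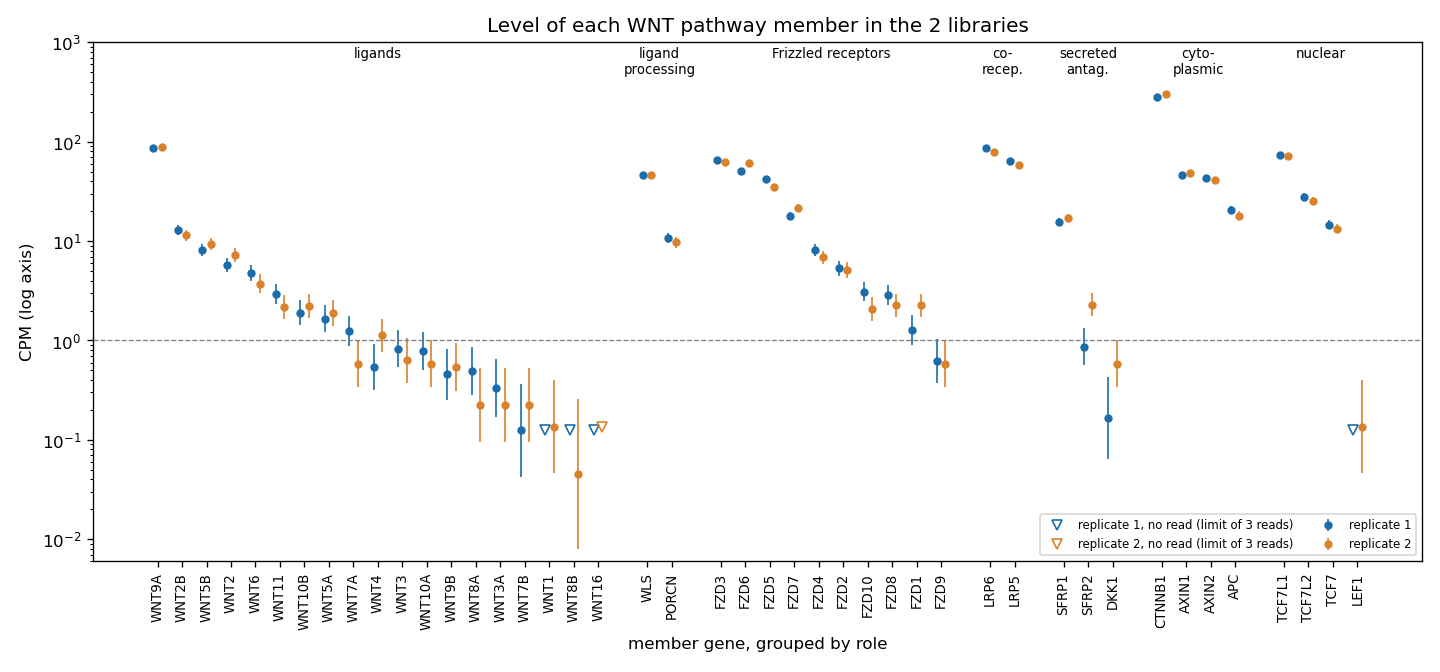
CPM of the 44 genes in each library on a log axis, grouped by role, with 95% Wilson intervals as bars. Open triangles mark a library without a read, drawn at the limit that 3 reads give, and the dashed line is the detection threshold of 1 CPM. The 8 ligands at the left lie above the line in both libraries, and WNT1, WNT8B, WNT16 and LEF1 had no read in replicate 1.

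Among the ligands, WNT9A was far above the others. WNT9A (ENSG00000143816.8), known for its part in joint formation, lies on the minus strand of chromosome 1 from 227918656 to 227947898. It had 2081 reads in replicate 1, or 86.2 CPM (82.6 to 90.0), and 1978 reads in replicate 2, or 89.1 CPM (85.3 to 93.1). The intervals of the libraries overlapped. The level per length was 29.5 ± 0.751 TPM (SD, n = 2), which was 4.14 times that of the next ligand. WNT9A made up 55.5% of the summed ligand TPM in replicate 1 and 55.9% in replicate 2. By TPM it stood above 79.4% of the protein-coding genes.

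The next ligands were WNT5B, WNT6, WNT2 and WNT2B. WNT5B, which is known to act mainly without beta-catenin, had 8.08 CPM in replicate 1 and 9.32 CPM in replicate 2, with 7.12 ± 0.915 TPM (SD, n = 2). WNT6 had 4.76 and 3.74 CPM, with 5.49 ± 0.814 TPM (SD, n = 2). WNT2, a canonical ligand of lung development, had 5.76 and 7.25 CPM, with 3.13 ± 0.589 TPM (SD, n = 2). The TPM ranges of these 3 neighbours in the order did not overlap. By CPM per kilobase of merged exons, however, WNT6 had 2.50 and WNT5B had 2.02, so the order of WNT5B and WNT6 depends on the scale. WNT9A, WNT5B and WNT6 together took 79.5% of the ligand TPM in replicate 1 and 79.6% in replicate 2.

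WNT2B, a close relative of WNT2, had 13.0 and 11.4 CPM, with 2.40 ± 0.260 TPM (SD, n = 2). Its reads exceeded the number predicted from TPM and transcript length by 2.61 times in replicate 1 and 2.42 times in replicate 2, so its TPM is uncertain. By exonic length, 21.2% of WNT2B is overlapped by exons of ST7L on the opposite strand. The libraries are strand-specific, but whether the counting used the strand is not given in the sources used here.

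WNT11, which guides cell movement in gastrulation, had 2.94 and 2.16 CPM with 1.94 ± 0.398 TPM (SD, n = 2). Its TPM range overlapped that of WNT2B. WNT10B, known in bone and fat formation, had 1.91 and 2.21 CPM with 1.28 ± 0.0332 TPM (SD, n = 2). WNT5A, the relative of WNT5B, closed the detected ligands with 1.66 and 1.89 CPM and 0.387 ± 0.0340 TPM (SD, n = 2). Per length, WNT5B was thus well above WNT5A in both libraries.

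Below the threshold were 11 ligands. WNT7A, known for patterning of the limb and the Müllerian duct, had 30 and 13 reads, and passed 1 CPM in replicate 1 only. WNT4, known for ovary development, had 13 and 25 reads, and passed in replicate 2 only. WNT3 had 20 and 14 reads, WNT10A had 19 and 13, WNT9B had 11 and 12, WNT8A had 12 and 5, and WNT3A had 8 and 5. WNT3 and WNT3A are the canonical ligands of the primitive streak. WNT7B had 3 and 5 reads, WNT1 had 0 and 3, and WNT8B had 0 and 1. WNT16 alone among the 44 genes had no read at all. The limit that 0 reads allow was 0.124 CPM for replicate 1 and 0.135 CPM for replicate 2. From WNT10A downward, the TPM ranges of all neighbours in the order overlapped, so the order of neighbours among these ligands is not resolved.

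**Figure D2:**
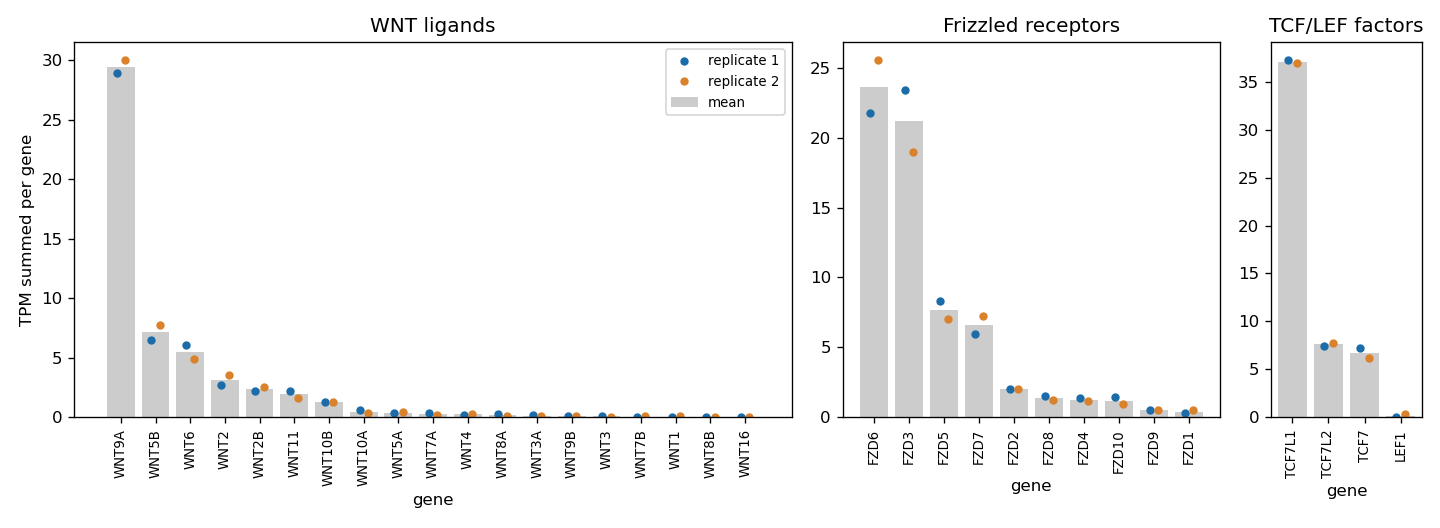
TPM summed per gene for the WNT ligands, the Frizzled receptors and the TCF/LEF factors, each panel with its own axis. Bars are means of 2 libraries and points are the libraries. WNT9A leads the ligands at 29.5 TPM, FZD6 and FZD3 lead the receptors with overlapping values, and TCF7L1 leads the nuclear factors at 37.1 TPM.

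Several ligand genes lie next to each other in pairs, and in 3 of the 4 pairs within 100 kb the levels were far apart. WNT9A and WNT3A are divergent genes 59152 bases apart on chromosome 1, and WNT9A had 231 times the TPM of WNT3A. That ratio is imprecise, since WNT3A had only 8 and 5 reads. WNT6 and WNT10A follow each other 6129 bases apart on chromosome 2, with 11.4 times the TPM for WNT6, where WNT10A had 19 and 13 reads. WNT10B and WNT1 are divergent genes 6689 bases apart on chromosome 12. WNT10B had 46 and 49 reads, and WNT1 had 0 and 3. WNT3 and WNT9B, whose outermost annotated ends lie 46 bases apart on chromosome 17, were both below the threshold. Their annotated starts in the promoter table lie further apart, at 46818692 for WNT3 and 46851583 for WNT9B.

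Both genes needed to release a WNT ligand were expressed. WLS (ENSG00000116729.14), the carrier that takes WNT proteins to the surface, lies on the minus strand of chromosome 1 from 68098473 to 68233120. It had 46.2 CPM in replicate 1 and 46.7 CPM in replicate 2, with 23.6 ± 0.790 TPM (SD, n = 2). PORCN (ENSG00000102312.24), the enzyme of the endoplasmic reticulum that adds the lipid, lies on chromosome X from 48508962 to 48520814. It had 10.8 and 9.73 CPM, with 7.49 ± 0.659 TPM (SD, n = 2). Per length, WLS was 3.14 times PORCN, and their ranges did not overlap.

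FZD6 and FZD3 were the highest Frizzled receptors by TPM and were not told apart there, whereas by CPM per kilobase FZD6 alone led. Both are known for planar cell polarity, and both lie on chromosome 8. FZD6 (ENSG00000164930.12, from 103298433 to 103332866) had 51.0 CPM (48.2 to 53.9) in replicate 1 and 61.7 CPM (58.5 to 65.1) in replicate 2. FZD3 (ENSG00000104290.11, from 28494205 to 28574268) had 65.5 CPM (62.4 to 68.9) and 62.4 CPM (59.2 to 65.8). The intervals of the libraries lay apart for FZD6 and overlapped for FZD3.

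By TPM the pair reached 23.6 ± 2.67 TPM for FZD6 and 21.2 ± 3.16 TPM for FZD3 (SD, n = 2 each), and together 67.9% of the summed receptor TPM in replicate 1 and 68.4% in replicate 2. Their ranges overlapped, with FZD3 higher in replicate 1 and FZD6 in replicate 2. Of the FZD3 TPM, however, 63.4% in replicate 1 and 67.1% in replicate 2 belonged to 1 short transcript of 580 bases. The long transcript FZD3-201 of 13736 bases, had 6.56 and 6.24 TPM. By CPM per kilobase of merged exons FZD6 had 13.9, FZD5 had 5.74, FZD7 had 5.07 and FZD3 had 4.64, so FZD3 was number 12 of the 44 genes on that scale and number 6 by TPM. The high TPM of FZD3 thus rests on the short transcript.

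FZD5 and FZD7 lay close to each other. FZD5, a receptor known in eye and gut development, had 41.9 and 35.1 CPM, with 7.67 ± 0.896 TPM (SD, n = 2). FZD7, a receptor described in pluripotent stem cells, had 17.7 and 21.4 CPM, with 6.61 ± 0.874 TPM (SD, n = 2). Their TPM ranges overlapped each other and lay apart from those of FZD6 above and FZD2 below.

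The other receptors were low. FZD4, which also binds the retinal ligand Norrin, had 8.08 and 6.85 CPM. FZD2 had 5.34 and 5.14 CPM, FZD10 had 3.11 and 2.07 CPM, FZD8 had 2.86 and 2.25 CPM, and FZD1 had 1.28 and 2.25 CPM. FZD9 was the only receptor below the threshold, with 15 and 13 reads. Per length, these 6 receptors ran from 0.397 ± 0.143 TPM (SD, n = 2) in FZD1 to 2.03 ± 0.00590 TPM (SD, n = 2) in FZD2. Of FZD4, 18.9% of the exonic length is overlapped by exons of PRSS23 on the opposite strand.

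The co-receptors were both well expressed. LRP5 (ENSG00000162337.12), which is also known to set bone mass, lies on chromosome 11 from 68312609 to 68449275 and had 64.5 and 57.8 CPM. LRP6 (ENSG00000070018.9), its relative on chromosome 12 from 12116025 to 12267012, had 87.5 and 79.4 CPM. Per length they had 18.3 ± 1.40 TPM for LRP5 and 11.4 ± 0.971 TPM for LRP6 (SD, n = 2 each). Their TPM ranges lay apart, with LRP5 higher.

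Of the secreted antagonists SFRP1, SFRP2 and DKK1, SFRP1 was the highest. Per length, SOSTDC1 and DKK3, from the further antagonist list given below, were above SFRP1. SFRP1 (ENSG00000104332.12), a soluble protein that resembles the ligand-binding part of a Frizzled receptor, lies on chromosome 8 from 41261958 to 41309497. It had 376 reads in replicate 1, or 15.6 CPM, and 380 reads in replicate 2, or 17.1 CPM, with 4.97 ± 0.359 TPM (SD, n = 2). SFRP2, its relative on chromosome 4, had 21 reads, or 0.870 CPM (0.569 to 1.33), and 51 reads, or 2.30 CPM (1.75 to 3.02). DKK1, which blocks LRP5 and LRP6 and is itself a known target of the pathway, had 4 and 13 reads.

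CTNNB1 was the highest of the 44 genes by TPM and by CPM per kilobase. CTNNB1 (ENSG00000168036.18) encodes beta-catenin, which serves both in WNT signalling and in cell adhesion, and lies on chromosome 3 from 41194741 to 41260096. It had 6886 reads, or 285 CPM (279 to 292), and 6714 reads, or 302 CPM (295 to 310). With 118 ± 3.74 TPM (SD, n = 2) it stood above 93.8% of the protein-coding genes.

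The scaffold genes AXIN1 and AXIN2 were at like levels by TPM. AXIN1 (ENSG00000103126.15), on chromosome 16 from 287440 to 352673, had 46.1 and 48.6 CPM, with 20.1 ± 0.207 TPM (SD, n = 2). AXIN2 (ENSG00000168646.14), on chromosome 17 from 65528563 to 65561647, is a feedback gene that the pathway itself induces in many cells. It had 43.3 and 41.5 CPM, with 19.8 ± 0.373 TPM (SD, n = 2). The TPM ranges of AXIN1 and AXIN2 overlapped, whereas by CPM per kilobase of merged exons AXIN2 had 8.12 and AXIN1 had 6.32. Of AXIN2, 25.2% of the exonic length is shared with exons of AC004805.1 on the same strand, so its reads could be split.

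APC, the tumour suppressor of the destruction complex, lies on chromosome 5 from 112707498 to 112846239. It had 20.8 and 18.1 CPM, but only 2.41 ± 0.250 TPM (SD, n = 2). Its reads exceeded the prediction from TPM by 2.60 times in replicate 1 and 4.99 times in replicate 2. APC and WNT2B were the only ones of the 29 detected genes in which reads and prediction differed by over 2-fold in a library, and the TPM of APC is uncertain.

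TCF7L1 was the main nuclear factor, and LEF1 was nearly without reads. TCF7L1 (ENSG00000152284.5), mostly a repressor that is known to restrain WNT targets in stem cells, lies on chromosome 2 from 85133410 to 85310388. It had 73.6 CPM (70.3 to 77.1) in replicate 1 and 72.6 CPM (69.2 to 76.2) in replicate 2, with 37.1 ± 0.206 TPM (SD, n = 2). It took 71.8% of the TPM of the 4 factors in replicate 1 and 72.1% in replicate 2. TCF7L2, a main effector in gut and many other tissues, had 28.0 and 25.6 CPM, with 7.62 ± 0.241 TPM (SD, n = 2). TCF7, best known from T cells, had 14.5 and 13.4 CPM, with 6.69 ± 0.730 TPM (SD, n = 2). LEF1, mostly an activator and often a target of the pathway, had 0 reads in replicate 1 and 3 reads in replicate 2, or 0.135 CPM (0.0460 to 0.397).

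The libraries were then compared gene by gene with a two-sided exact binomial test on reads (edgeR, Benjamini-Hochberg adjustment over 15299 genes), which sets these 2 libraries against counting noise and does not compare conditions. Of the 44 genes, 36 passed the filter on low counts and 7 were called, or 19.4%, against 13.1% of all genes tested. Higher in replicate 2 were SFRP2, FZD6, FZD7 and CTNNB1, where 6.49% of all genes were called in this direction. Lower in replicate 2 were FZD5, LRP5 and LRP6, where 6.65% of all genes were called. None of the 13 ligands tested was called, with the smallest adjusted p at 0.121 for WNT7A (edgeR), and at an unadjusted p under 0.05 there were 3: WNT7A, WNT4 and WNT2. Calls depend on depth: among members with at least 1000 reads over both libraries 5 of 12 were called, against 22.3% of all such genes. Each difference rests on a single pair of libraries, so no replicates check it.

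SFRP2 was the gene most apart, with the log2 difference of CPM + 1 at 0.82 (edgeR exact binomial test, adjusted p = 0.0021). FZD6 followed with 0.27 (edgeR exact binomial test, adjusted p = 2.7e-05) and FZD7 with 0.26 (adjusted p = 0.036 in the same edgeR test). CTNNB1 was 0.084 higher in replicate 2 (adjusted p = 0.0047 in the same edgeR test), a small difference at high depth. FZD5 was lower by a log2 difference of -0.25 (adjusted p = 0.0044 in the same edgeR test). LRP5 and LRP6 were lower by log2 differences of -0.16 and -0.14 (adjusted p = 0.040 and 0.032 in the same edgeR test). The calls of FZD7, LRP5 and LRP6 were lost when all genes with a read were tested, with adjusted p in edgeR of 0.061, 0.068 and 0.055. Over the 30 members whose mean reached 1 CPM, the median difference was -0.054, with 13 higher and 17 lower in replicate 2, against a median of -0.0077 over all 13898 such genes.

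**Figure D3:**
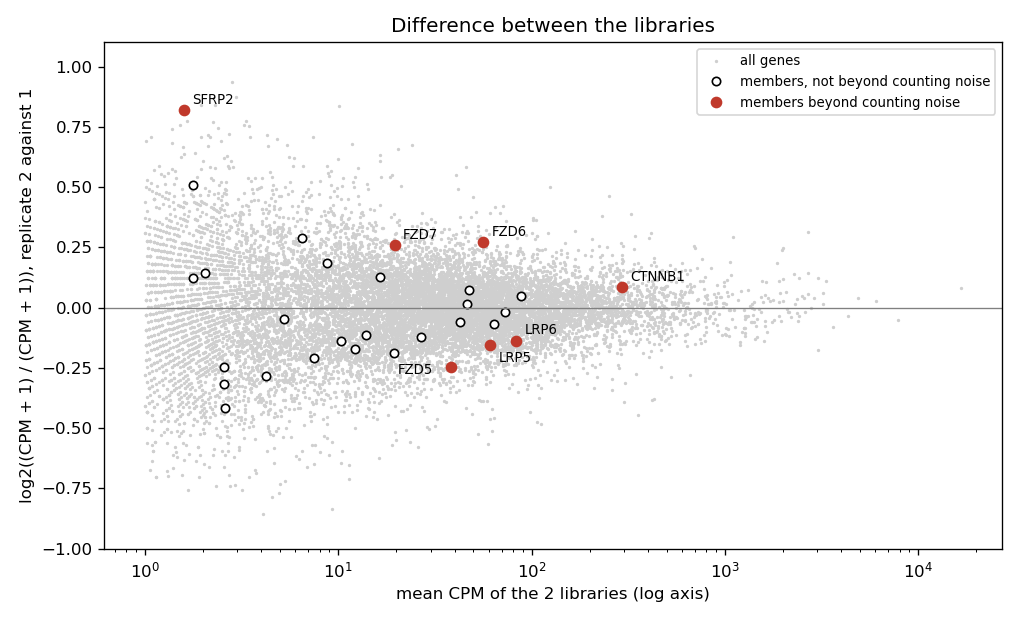
Log2 difference of CPM + 1, replicate 2 against replicate 1, over the mean CPM on a log axis. Grey points are the 13898 genes whose mean reached 1 CPM, open circles are WNT pathway members not beyond counting noise and red circles the 7 that were. SFRP2 lies highest at 0.82, and the other 6 lie between -0.25 and 0.27.

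The transcript table gives the transcripts behind these levels, with 292 transcripts matched to the 44 genes. Its depth is unknown, so no intervals are given. WNT9A was represented by WNT9A-201 alone, and TCF7L1-201 held 97.2% and 98.1% of the TCF7L1 TPM. In CTNNB1, transcripts whose coding sequence begins at the same first start codon held 98.9% of the TPM in replicate 1 and 99.4% in replicate 2. Transcripts whose coding sequence begins at a start codon further down held 0.553% and 0.411%. How much of the protein these lack was not tested. The residues phosphorylated by the destruction complex are known to lie near the start of beta-catenin. Whether the transcripts with the later start codon still encode those residues was not tested.

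TCF7 is known to be made in forms with and without the part that binds beta-catenin, which begin at different start codons. Transcripts that begin within 1000 bases of the first annotated start held all of the TCF7 TPM, but that window joins 2 groups of transcripts. The group whose start codon lies at 134114907 on chromosome 5, before the first annotated start, held 43.1% of the TPM in replicate 1 and 25.6% in replicate 2, or 3.10 and 1.58 TPM. The group whose start codon lies at 134115938, after that start, held 49.99% and 73.2%, or 3.60 and 4.52 TPM. Both groups had TPM in both libraries, and the downstream group had the larger share. Which of these transcripts encode the part that binds beta-catenin was not tested. With a window of 100 bases, added after the data were seen, the first annotated start held 47.1% and 69.0%. The transcript at the second start, with its start codon at 134123736, was listed at 0 in both libraries. The TCF7 promoters printed above belong to these annotated starts and hold 22 CG pairs at the first and 1 at the second.

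In TCF7L2, transcripts with the start codon at 112950757 on chromosome 10 held 96.0% of the TPM in replicate 1 and 85.6% in replicate 2, and the same shares began within 1000 bases of the first of its 3 annotated starts. Within 100 bases of that start the shares were 5.35% and 22.3%, so most of these transcripts begin further from it. By the wider window the second start held 0% and 9.55%, and the third was listed at 0 in both libraries.

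WNT2B had TPM near both of its annotated starts. Within 1000 bases, the first held 1.05 and 1.08 TPM, and the second held 1.16 and 0.950 TPM, of which none began within 100 bases. WNT5B gave an opposite picture in the libraries. In replicate 1 its first start was listed at 0 TPM and the second held 85.5% of the TPM, whereas in replicate 2 the first held 69.6% and the second 18.9%. The switch lies in the pair WNT5B-202, at 4.61 and 0 TPM, and WNT5B-201, at 0 and 5.41 TPM. The summed level of WNT5B differed much less, with 6.48 and 7.77 TPM. With 195 and 207 reads in the whole gene, the start of WNT5B was not resolved by these libraries.

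**Figure D4:**
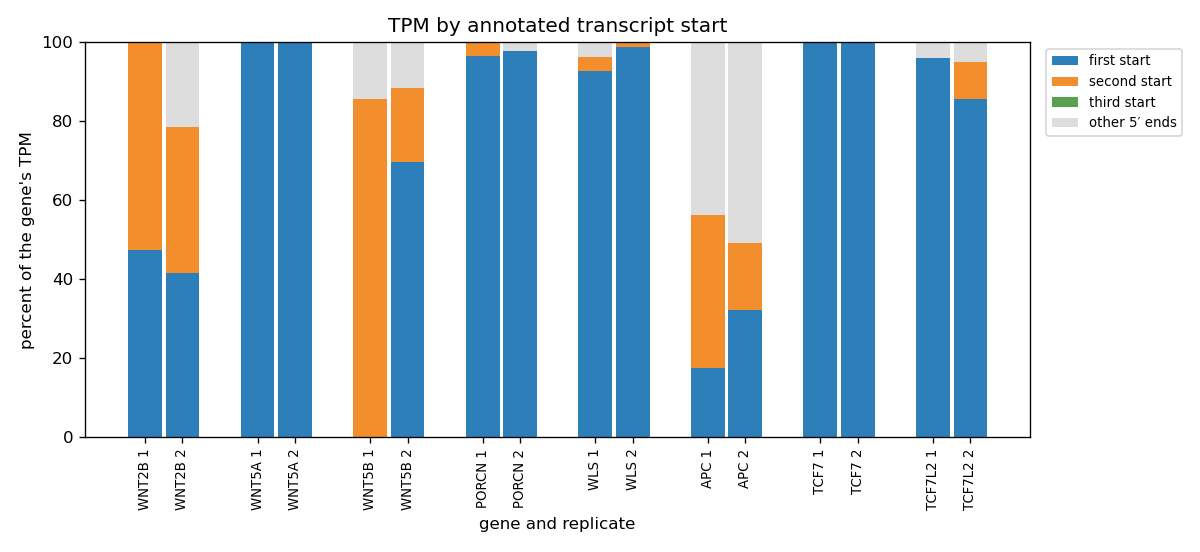
Percent of a gene's TPM by annotated transcript start in each library, for the 8 members with more than 1 start in the promoter table. A transcript was given to a start within 1000 bases of its 5′ end, and the grey part began elsewhere. In TCF7 the bar of the first start joins the groups of transcripts with start codons before and after it, the WNT5A transcript begins over 100 bases from its start, the starts of WLS lie close together, and WNT5B changes between the libraries.

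In WNT2, PORCN, LRP6 and APC a large part of the TPM lay in transcripts annotated as targets of nonsense-mediated decay, which destroys transcripts with an early stop codon. WNT2 had 58.4% in replicate 1 and 60.0% in replicate 2. PORCN had 62.5% and 37.7%, and LRP6 had 30.4% and 26.1%. APC had 17.5% and 32.2%, and FZD6 followed with 11.8% and 15.1%. These 5 genes were named after their values were seen, and no share over all genes is given. In APC the share is that of 1 transcript of 573 bases, APC-205, and the TPM of this gene is uncertain. The leading transcript differed between the libraries in 6 of 20 members with at least 1 TPM and several transcripts, or 30%, against 11.7% of all 11774 such genes. The 6 were CTNNB1, AXIN2, TCF7, TCF7L2, WNT2B and WNT5B. In CTNNB1 the leaders CTNNB1-201 and CTNNB1-202 were close, with 34.0% and 35.2% of the TPM in replicate 1.

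Other genes of the pathway were taken from 7 lists of 64 genes in all, of which 49 were detected, or 76.6%. The share among all protein-coding genes was 61.7%. The binomial test called 5 of the 51 tested genes as higher and 6 as lower in replicate 2, where 6.49% and 6.65% of all genes tested were called. Of 9 R-spondin and R-spondin receptor genes 5 were detected and none was called in edgeR. LGR4, the R-spondin receptor, had 54.4 and 52.4 CPM, and ZNRF3 and RNF43, the ligases that remove Frizzled receptors and are counteracted by R-spondins, had 15.8 and 15.6 CPM and 6.01 and 6.67 CPM. RSPO2 had no read and LGR5, a marker of WNT-driven stem cells, had 0 and 1 read. RSPO4 was the only detected R-spondin, with 3.65 and 3.83 CPM. All 6 other co-receptors were detected. PTK7 had 196 and 208 CPM, RYK had 97.9 and 103 CPM and ROR2, a receptor of WNT5A, had 30.6 and 31.5 CPM. PTK7 was called higher and KREMEN2, at 19.0 and 15.1 CPM, lower in replicate 2.

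Of 10 further genes listed as secreted antagonists 3 were detected, and whether their products oppose WNT signals in these cells was not tested. SOSTDC1, an antagonist of both WNT and BMP signals, had 52.4 and 69.1 CPM and was called higher in replicate 2. DKK3 had 38.3 and 42.3 CPM, and NOTUM, the enzyme that removes the lipid of WNT proteins, had 5.92 and 5.05 CPM. SFRP4, WIF1 and DKK4 had no read in either library. Per length SOSTDC1, at 51.4 ± 9.13 TPM, and DKK3, at 18.3 ± 1.73 TPM (SD, n = 2 each), were above SFRP1 in both libraries.

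Of 11 Dishevelled and destruction complex genes 10 were detected. DVL3, which relays the signal from Frizzled, had 145 and 130 CPM, and the kinase genes CSNK1A1 and GSK3B, whose products phosphorylate beta-catenin, had 129 and 131 CPM and 114 and 105 CPM. DVL3 and GSK3B were called lower in replicate 2. Per length GSK3A, at 61.0 ± 3.62 TPM, was above GSK3B, at 15.4 ± 0.465 TPM (SD, n = 2 each). All 9 nuclear cofactors were detected and none was called in edgeR. PYGO2 had 90.4 and 89.0 CPM, TLE3, a co-repressor, had 79.0 and 73.2 CPM, and BCL9, which links beta-catenin to PYGO2, had 71.3 and 67.4 CPM. Per length CTNNBIP1, at 33.8 ± 2.50 TPM, was above BCL9, at 8.38 ± 1.45 TPM (SD, n = 2 each).

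Of 11 feedback and target genes 8 were detected, and 3 were called. BAMBI had 71.8 and 73.3 CPM. CCND1, the gene of cyclin D1, had 53.9 and 66.9 CPM and was called higher in replicate 2, whereas MYC had 24.2 and 21.9 CPM. NKD2, an inhibitor that acts on Dishevelled, was called lower with 24.9 and 18.2 CPM, as was CDX1 with 12.8 and 8.15 CPM. SP5 and TBXT, targets of WNT signalling in the primitive streak, had 13 and 11 reads and 4 and 4 reads. All 8 planar polarity genes were detected. VANGL2 had 143 and 155 CPM, PRICKLE1 had 34.6 and 49.0 CPM and VANGL1 had 38.7 and 35.9 CPM. VANGL2 and PRICKLE1 were called higher and CELSR2, at 34.7 and 24.2 CPM, lower in replicate 2.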

How the data were processed

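RNA-seq of 2 libraries of 1 group was analysed. The submitters' processing notes name Trim Galore 0.6.10, STAR 2.7.11a, Salmon 1.10.2, DESeq2 and the build GRCh38, with no role or order. The annotation and the counting are not given in the sources used here. The authors deposited TPM per transcript and a gene table whose signal values are reads per gene scaled by 1 factor for each library, although the table is named as CPM. All values above 0 (100% in each library, tolerance 0.001 reads) were whole multiples of the value of 1 read, so reads were recovered and CPM computed over all reads in genes. Between the files' columns and the samples, 0 columns were left unused.

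The members and lists were chosen with earlier results of these data known. Genes were matched by identifier without version, and 201667 of 251955 transcripts were matched in the same way to GENCODE 29 on GRCh38, with 94.8% of the TPM in each library. Gene coordinates are from GENCODE 29. All members, and of the other lists the 3 highest genes by mean CPM, those called and those without a read, were to be named. Genes were called with edgeR 4.0.16 (binomTest, TMM, filterByExpr, adjusted p under 0.05). In a simulated pair of libraries over 15401 genes, 100% of 200 genes changed 2-fold were recovered, with 7 unchanged genes called. The simulated counts held counting noise only. In the real pair the chi-square per degree of freedom was 4.75 over 15299 genes, a spread above counting noise. The simulated false calls therefore do not give the rate of false calls in these libraries. Recovery was not split by level, so it does not speak for low genes such as SFRP2. Nothing says whether the replicates were separate cultures, so p-values measure only the spread between these samples, here against counting noise. Alternatives were the threshold, scaling (total reads, DESeq2 1.42.0 size factors), filter, pseudocount, TPM in place of CPM, each library alone and the window around a transcript start.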

Additional observations from a re-analysis of the deposited data

How the results depend on the processing

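No paired analysis was possible because both libraries belong to 1 group. The count of detected ligands, 8 of 19, was 16 at 0.1 CPM, 4 at 5 CPM and 9 to 9 in a library taken alone. For all 44 genes, 29 detected became 40 at 0.1 CPM, 22 at 5 CPM, 26 with TPM and 30 to 31 in a library alone. For the receptors, 9 became 10 and 6 at these thresholds and 7 with TPM. Calls beyond counting noise numbered 7 of 36 with TMM (13.1% of all genes), total reads (13.0%) and DESeq2 size factors (13.0%), and 4 of 43 when all genes with a read were tested (6.47% of all genes), which adds genes to the adjustment. The calls of SFRP2, FZD6, FZD5 and CTNNB1 were kept in each alternative. With a window of 100 bases, added after the data were seen, the mean share of TPM at the first start went from 100% to 58.1% in TCF7, from 90.8% to 13.8% in TCF7L2 and from 100% to 0% in WNT5A, and moved by less than 1 SD in the other 5 genes. The median difference of -0.054 ranged from -0.059 to -0.016. Members whose leading transcript differed numbered 6 of 20 at 1 TPM and 2 of 9 at 10 TPM, where fewer genes were compared. At 10 TPM that is 22.2%, against 6.90% of all 7040 such genes. With 2 replicates, leaving out 1 gives no difference between libraries. Below about 1 CPM the order of neighbouring ligands was not resolved at this depth.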

Other observations

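Among the listed pathway genes, VANGL2 and BCL9L had reads that their TPM does not show. VANGL2 had 3461 and 3448 reads, or 149 ± 8.44 CPM (SD, n = 2), but 0.455 ± 0.644 TPM (SD, n = 2). BCL9L had 40.1 CPM in each library, but 1.31 ± 1.51 TPM (SD, n = 2). The transcript table holds 50288 transcripts that were not matched to a gene, and whether they include transcripts of these genes was not tested. Both genes were named after their values were seen.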
